A study of Homo sapiens with 8 samples.

Results

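The chaperone and unfolded protein genes of the endoplasmic reticulum were a set of 10 genes: HSPA5, HSP90B1, CALR, CANX, PDIA4, DNAJB9, HERPUD1, SDF2L1, XBP1 and EDEM1. They were found by gene symbol among the non-control spots of each array, and made up 10 of the 43317 gene names, 12 of the 58201 probes and 21 of the 60901 spots. HSP90B1 and CANX had 2 probes each, XBP1 had 1 probe spotted 10 times, and the other genes had 1 probe in 1 spot. Each gene was read from its brightest probe. All 80 member values (10 genes on 8 arrays) were well above background in both channels, so no member was lost to a filter, and no member spot was saturated.

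The endoplasmic reticulum folds secreted and membrane proteins with the help of chaperones, lectins and disulfide isomerases. When unfolded proteins build up there, the sensors IRE1 (gene ERN1), ATF6 and PERK (gene EIF2AK3) start the unfolded protein response. IRE1 splices the XBP1 transcript into a potent transcription factor, ATF6 is cut to release another, and PERK slows translation and lets ATF4 be made. The first and second of these routes raise chaperones and the machinery that sends misfolded proteins to degradation, while ATF4 raises genes of amino acid supply, redox balance and cell death.

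RNA of treated human cancer cell lines was compared with RNA of mock cells on two-colour Agilent arrays. Each of the 8 arrays carried mock RNA labelled with Cy3 and treated RNA labelled with Cy5, and each treatment had 1 array with no dye swap, so no treatment had a replicate and none was tested. PC3 prostate cancer cells received bisamide, a small-molecule inhibitor of the iron-binding nuclear protein pirin, for 24 h or for 48 h. Mature miRNAs were transfected on the other 6 arrays: miR-199-3p into C4-2 prostate cancer cells, miR-125b-1-3p into PC3, both strands of miR-532 (miR-532-5p and miR-532-3p) into 786-O renal cancer cells and both strands of miR-140 (miR-140-5p and miR-140-3p) into T24 bladder cancer cells. The labels give the mock cells as not transfected, so a treated value holds any effect of the transfection itself, and the labels list bisamide under transfection too. Each line is 1 cell line in culture, and the labels give no time for the miRNAs and no dose.

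The dye with the mock RNA also gave the levels of the 4 lines. KLK3, which C4-2 is known to make, had a raw Cy3 intensity of 13592 in the C4-2 mock and was not above background in the other 7. None of the 5 urothelial markers was above background in T24, and PAX8 and PAX2, fixed as renal markers, were brighter in T24 (lowest 390 and 551) than in 786-O (highest 239 and 124). CDH6, a renal marker too, went the other way, with 153 and 164 in the 786-O mocks and no value above background in the other lines, and CA9 was above background in no mock. The line names are those of the labels. The Cy3 profiles of 22625 genes correlated at 0.9915 to 0.9993 (Pearson) within a line and at 0.8643 to 0.931 between lines.

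A known motif of the pathway lay in promoter windows of 7 of the 10 genes. As the motif was already known from genes of this pathway, its presence here describes sequence and tests nothing. The ER stress element, known to be bound by ATF6 together with NF-Y, reads CCAAT, a gap of 9 bases, then CCACG. Searched on both strands, it occurred in 27 of 35116 RefSeq promoter windows (GRCh38.p14, 250 bases before to 50 after a transcript start), or 0.0769%, and in windows of 5 members. Its shorter form, ATTGG, 1 base, then CCACG, occurred in 19 windows, or 0.0541%, and in windows of 2 further members. The 2 forms share CCACG, and the 10 genes had 15 windows in all, of which 7 held the first form and 2 the second. The 7 included overlapping windows of CANX that held the same single element, so that element was counted more than once. The stretches below run 5′ to 3′ on the strand of the gene, with the fixed letters of the element in capitals. An element that starts with CGTGG lies on the opposite strand.
HSPA5, chr9:125241381-125241419: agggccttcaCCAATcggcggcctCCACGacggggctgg
HSP90B1, chr12:103930206-103930349: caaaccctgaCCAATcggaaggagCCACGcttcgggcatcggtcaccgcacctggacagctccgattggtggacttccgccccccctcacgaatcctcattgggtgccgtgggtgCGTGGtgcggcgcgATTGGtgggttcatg
CALR, chr19:12938374-12938412: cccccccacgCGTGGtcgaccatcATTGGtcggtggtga
CANX, chr5:179698768-179698806: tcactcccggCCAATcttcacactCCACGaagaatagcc
XBP1, chr22:28800593-28800631: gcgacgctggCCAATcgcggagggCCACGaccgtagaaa
HERPUD1, chr16:56932015-56932045: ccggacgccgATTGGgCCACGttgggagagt
SDF2L1, chr22:21642104-21642134: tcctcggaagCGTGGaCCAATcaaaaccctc
HSP90B1 held 2 elements in opposite orientation. No match lay in the windows of PDIA4, DNAJB9 and EDEM1, which says only that these letters were not there.

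The median of the set lay between −0.21 and 0.07 over the treatments, while single genes moved further. A value was counted as higher or lower where the log2 ratio of treated over mock passed 0.5 in size, a threshold of description and not a test. Over the 80 values, 7 were lower and 7 were higher. The median log2 ratio of the 10 members was 0.01 with bisamide for 24 h, −0.06 with bisamide for 48 h, −0.21 in C4-2 under miR-199-3p and 0.07 in PC3 under miR-125b-1-3p. In 786-O it was 0.04 under miR-532-5p and −0.19 under the 3p strand, and in T24 it was −0.15 under miR-140-5p and −0.04 under the 3p strand. The median of all genes well above background was between −0.0002 and 0.02 on every array. In place of the loess fit, centring each array on its median left the median of these genes between −0.03 and 0.45, and values on that scale are to be read against that median.

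**Figure D1:**
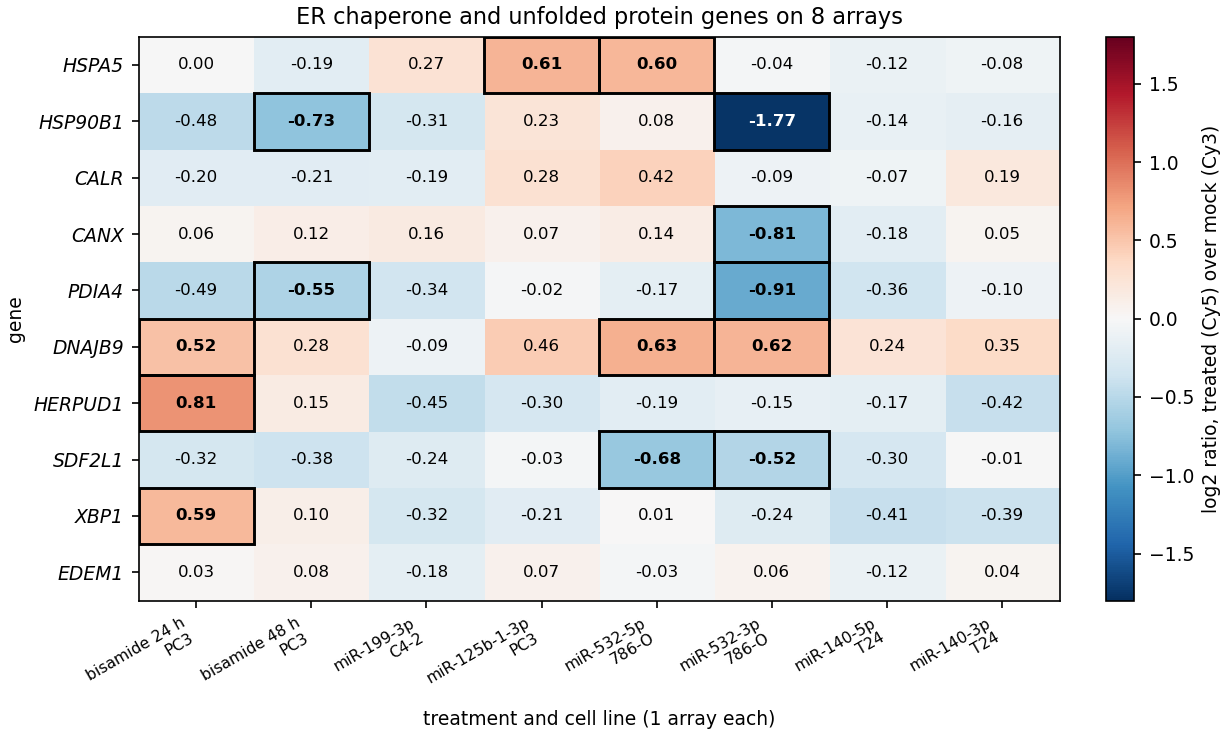
Log2 ratio of treated (Cy5) over mock (Cy3) for the 10 genes in rows on the 8 arrays in columns, 1 array for each treatment. Framed cells in bold passed 0.5 in size: 7 lower, with HSP90B1 on the miR-532-3p array at −1.77, and 7 higher, with HERPUD1 on the 24 h bisamide array at 0.81.

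With bisamide for 24 h, 3 of the 10 genes were higher and none was lower. HERPUD1, a membrane scaffold of the degradation machinery, had a log2 ratio of 0.81, XBP1 of 0.59 and DNAJB9, a J-domain helper of HSPA5, of 0.52. Of all genes on this array 1.05% were higher and 0.4% were lower. HERPUD1 was the 61st highest of 19241 genes. The spread of XBP1 over its 10 spots was small (SD 0.06), but that is error within 1 array.

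These 3 values depended on the reference used, and all 3 genes had their lowest PC3 mock level on that array. Whether the mock or the treated RNA set them apart was not tested. HERPUD1 had a log2 Cy3 level of 10.52 in the 24 h mock, 11.26 in the 48 h mock and 11.32 in the mock of the miR-125b-1-3p array, after scaling between arrays. Its treated level was 11.33 at 24 h and 11.41 at 48 h. The 24 h mock was thus the low one, and the treated levels lay within 0.08 of each other. XBP1 stood at 9.61, 9.96 and 10.11 in the same mocks and DNAJB9 at 7.45, 7.73 and 8.04, again lowest at 24 h. Against the mean of the 3 PC3 mocks, a reference chosen after seeing the data, the 24 h log2 ratios were 0.30 for HERPUD1, 0.31 for XBP1 and 0.24 for DNAJB9, and no member was higher by more than 0.5. When each gene's median on the miRNA arrays was taken off instead, DNAJB9 fell to 0.12 while HERPUD1 rose to 1.06 and XBP1 to 0.87.

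**Figure D2:**
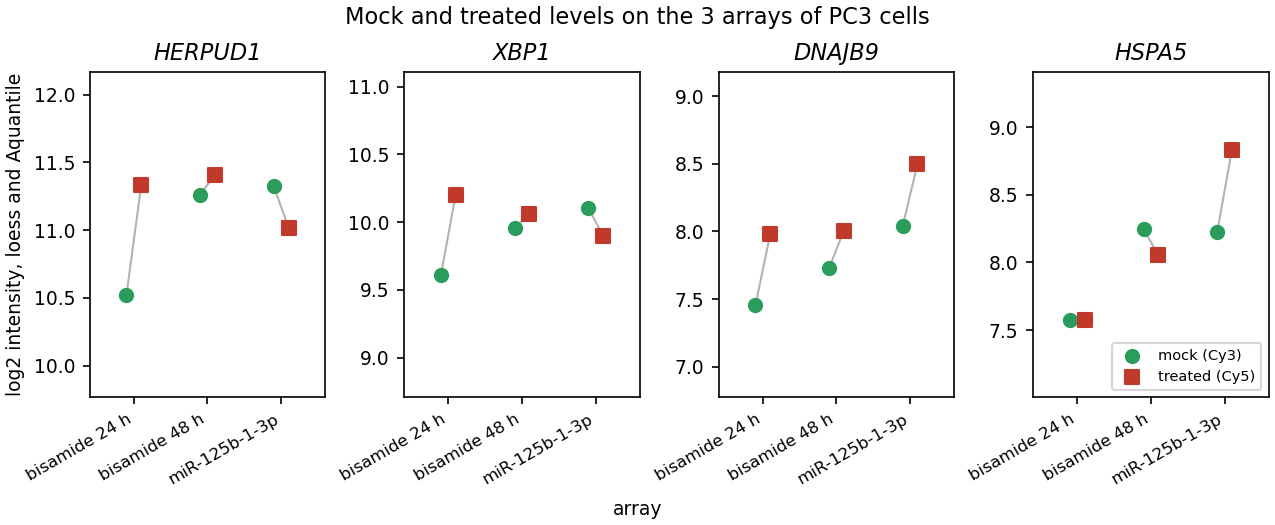
Log2 intensity of mock (Cy3, circles) and treated (Cy5, squares) RNA after loess and scaling between arrays, for 4 genes on the 3 arrays of PC3 cells, each panel with its own range of equal height. The HERPUD1 mock of the 24 h array stands at 10.52, below the other PC3 mocks at 11.26 and 11.32, while the treated values at 24 h and 48 h are 11.33 and 11.41.

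HSPA5, the central chaperone and the usual gauge of the response, did not pass the threshold with bisamide. Its log2 ratio was −0.0007 at 24 h and −0.19 at 48 h. Its mock and treated levels moved together between the times, from 7.58 and 7.58 at 24 h to 8.25 and 8.05 at 48 h. Against the mean of the 3 PC3 mocks its values were −0.44 and 0.04.

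With bisamide for 48 h, 2 of the 10 genes were lower and none was higher. HSP90B1, the HSP90 of the endoplasmic reticulum, had a log2 ratio of −0.73 (1.65-fold lower) and PDIA4, a disulfide isomerase, of −0.55 (1.47-fold lower). Of all genes 0.878% were lower and 0.915% higher. Both were also below 0 at 24 h, HSP90B1 at −0.48 and PDIA4 at −0.49, short of the threshold. The dimmer probe of HSP90B1 gave −0.23 at 24 h and −0.40 at 48 h, short of the threshold at both times. Against the mean of the 3 PC3 mocks HSP90B1 was at −0.62 and −0.51 and PDIA4 at −0.68 and −0.62 at 24 h and 48 h. Under median centring the 48 h values turned to 0.28 for HSP90B1 and 0.16 for PDIA4, both below the 0.44 of the median gene on that scale. PDIA4 was below 0 on all 8 arrays and stood at −0.30 at 48 h once its median on the miRNA arrays was taken off. The remaining members, CALR, CANX, SDF2L1 and EDEM1, lay between −0.38 and 0.12 on both bisamide arrays.

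Other genes of the pathway gave the contrast to these small shifts, but were read against the mock of their own array only. In a list of 11 genes of the PERK branch, 10 were measured in PC3. Of these 9 of the 10 were higher at 24 h and 7 of the 10 at 48 h, with median log2 ratios of 1.53 and 0.68. Of all genes 1.05% and 0.915% were higher at these times. The list was written with earlier results of these arrays known. ATF4, its transcription factor, was at 1.31 and 0.80, and DDIT3, the factor CHOP, at 0.97 and 0.51. ASNS, which makes asparagine, reached 2.80 and 1.86. CHAC1, which breaks down glutathione, was at 2.63 and 2.17, and TRIB3, a pseudokinase that binds ATF4, at 2.33 and 1.23. ATF4, DDIT3, ASNS, CHAC1 and TRIB3 were also dimmest in the 24 h mock among the PC3 mocks. In the 24 h, 48 h and miR-125b-1-3p mocks raw Cy3 was 1814, 2111 and 3493 for TRIB3. For CHAC1 it was 210, 252 and 270. Ratios of this list against the mean of the PC3 mocks are not given here. NUPR1, a stress-response regulator, was at 1.497 at 48 h. ATF4 and its targets are known to answer amino acid shortage and other stresses besides PERK, and which of these acted here was not tested. The transcript of PERK itself, EIF2AK3, was at −0.03 and −0.21 on a dim probe (raw Cy3 34 and 40). The activity of the protein was not measured.

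Of the lists closest to the members in function, those of chaperones and of degradation shifted little in size with bisamide, and the sensors had genes that passed 0.5. Of 18 other chaperones and folding enzymes measured in PC3, none passed 0.5 at 24 h and 1 was lower at 48 h, MANF, a secreted protein of the organelle, at −0.52. Of 21 genes of degradation and translocation none passed 0.5 at either time. The small values leaned to 1 side in part. At 24 h, 9 of the 18 chaperones and 3 of the 21 degradation genes were below 0, beside 45.8% of all genes. At 48 h, 14 of the 18 and 6 of the 21 were, beside 45.7%. Of the 6 sensors and their activators 2 were higher at 24 h and 1 at 48 h, beside 1.05% and 0.915% of all genes. ERN1 was at 0.88 and 0.62 and ATF6 at 0.51 and 0.36, both named after their values were seen.

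**Figure D3:**
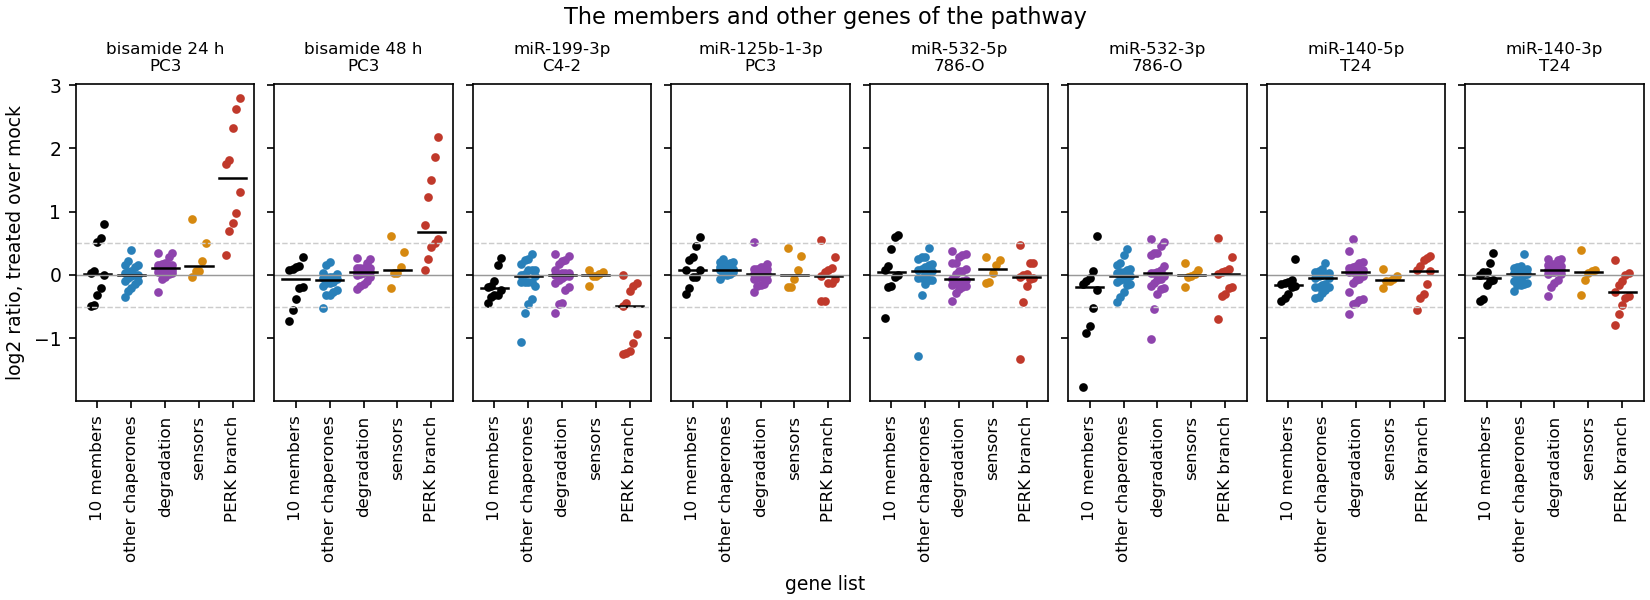
Log2 ratio of treated over mock for the 10 members and for 4 lists of other pathway genes on each of the 8 arrays. Points are genes well above background in both channels, bars are medians and dashed lines mark 0.5 in either direction. The PERK branch has a median of 1.53 on the 24 h bisamide array and −0.49 on the miR-199-3p array, where the members have medians of 0.01 and −0.21.

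The strands of miR-532 come from the same hairpin but carry different seeds (bases 2 to 8, in capitals). They are shown because, of the 3 pairs of arrays with related treatments in 1 line (both strands of miR-532, both of miR-140, both bisamide times), the members differed most between these. So did genes in general. The SD of the difference in treated level over all genes was 0.34 here, 0.26 for the miR-140 strands and 0.18 for the bisamide times.
miR-532-5p: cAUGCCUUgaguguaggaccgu
miR-532-3p: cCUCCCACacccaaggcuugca
With miR-532-3p, 4 of the 10 genes were lower and 1 was higher, on an array where 3.84% of all genes were lower and 1.71% higher. With miR-532-5p, 1 was lower and 2 were higher, where 3.67% of all genes were lower and 3.6% higher. In bulk RNA, fewer cells that make a transcript and less transcript in each cell cannot be told apart.

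HSP90B1 showed the widest shift of all 80 values. Its raw Cy3 intensity in the 786-O mock was 4455 on the miR-532-5p array and 4585 on the miR-532-3p array, while its raw Cy5 intensity was 4603 with miR-532-5p and 2109 with miR-532-3p. The mocks were alike and the treated value with miR-532-3p was low. The log2 ratio was 0.08 with miR-532-5p and −1.77 with miR-532-3p (3.40-fold lower), the 11th lowest of 15442 genes on that array. These came from the brighter probe, at chr12:104341536-104341595 (GRCh37, as the files give it). The second, dimmer probe of HSP90B1, whose match to the genome runs over 2803 bases (chr12:104337650-104340452), gave 0.06 and −0.96, so the probes had the same direction and differed in size. Over the processing alternatives the miR-532-3p value ranged from −1.795 to −1.114, the latter under median centring, where the median gene was at 0.17.

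CANX and PDIA4 followed the same pattern at smaller size. CANX, a membrane-bound lectin that holds new glycoproteins for folding, had a log2 ratio of 0.14 with miR-532-5p and −0.81 with miR-532-3p (1.75-fold lower), and its dimmer probe gave 0.03 and −0.37. On the brighter probe the other 7 values of CANX lay between −0.18 and 0.16, so the miR-532-3p array stood alone there. The dimmer probe did not single that array out, as it was lower still with miR-140-5p, at −0.47. PDIA4 was at −0.17 and −0.91 (1.88-fold lower), and its value was −0.57 once its median on the other arrays was taken off. Under median centring PDIA4 with miR-532-3p was at −0.48 and CANX at −0.54, where the median gene was at 0.17.

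SDF2L1 and DNAJB9, which work with HSPA5, moved alike under both strands. SDF2L1 was at −0.68 with miR-532-5p and −0.52 with miR-532-3p, the latter turning to 0.094 under median centring, below the 0.17 of the median gene on that scale. DNAJB9 was at 0.63 and 0.62. None of these 4 values passed 0.5 once each gene's median on the other arrays was taken off, which left −0.38 and −0.23 for SDF2L1 and 0.29 and 0.27 for DNAJB9. The arrays of 786-O may share 1 mock RNA, which the sources used here do not settle, so these 2 pairs of values may not be independent. HSPA5 was at 0.60 with miR-532-5p and −0.04 with miR-532-3p, and CALR, the soluble lectin of the same cycle as CANX, at 0.42 and −0.09. HERPUD1, XBP1 and EDEM1 lay between −0.24 and 0.06 on both arrays.

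**Figure D4:**
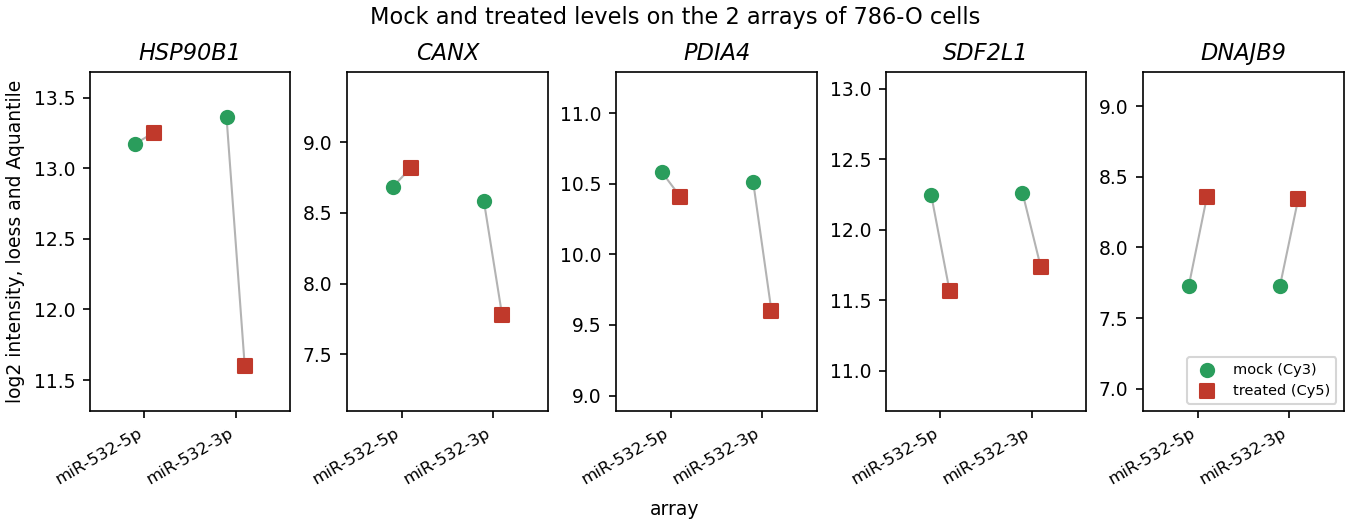
Log2 intensity of mock (Cy3, circles) and treated (Cy5, squares) RNA after loess and scaling between arrays, for 5 genes on the 2 arrays of 786-O cells, each panel with its own range of equal height. HSP90B1, CANX and PDIA4 are far below their mock only with miR-532-3p (−1.77, −0.81 and −0.91), whereas SDF2L1 is lower and DNAJB9 higher with both strands on this scale.

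Among other pathway genes with miR-532-3p, SEC61A1, the channel subunit through which proteins enter the endoplasmic reticulum, was at −1.01 and CHAC1 at 0.59. The 21 measured genes of degradation and translocation had 2 lower and 2 higher with a median of 0.02, and none of 19 other chaperones passed 0.5. With miR-532-5p, ASNS was at −1.33 and the list of other chaperones had 1 lower of 19, with a median of 0.06.

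With miR-125b-1-3p in PC3, 1 of the 10 genes was higher and none was lower, beside 1.77% and 0.883% of all genes. The gene was HSPA5, at a log2 ratio of 0.61, with raw Cy3 of 339. Its value was 0.82 against the mean of the 3 PC3 mocks and 0.61 to 1.22 over the other processing alternatives, the highest under median centring, where the median gene was at 0.42. DNAJB9 was at 0.46, CALR at 0.28 and HSP90B1 at 0.23, while HERPUD1 at −0.30 and XBP1 at −0.21 lay below 0. From the lists DDIT4, an inhibitor of mTORC1, was at 0.55.

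No member passed 0.5 with miR-199-3p, miR-140-5p or miR-140-3p. With miR-199-3p in C4-2, where 2.73% of all genes were lower and 1.76% higher, 8 of the 10 were below 0, as 47.3% of all genes were, and the values ran from −0.45 (HERPUD1) to 0.27 (HSPA5). EDEM1, the dimmest member on that array (raw Cy3 38.8), was at −0.18 there but ranged down to −0.77 over the alternatives. In the same cells 5 of 11 genes of the PERK branch were lower, with a median of −0.49, among them ASNS at −1.25 and TRIB3 at −1.20. With miR-140-5p in T24, where 2.89% of all genes were lower and 1.74% higher, 9 of the 10 were below 0, beside 47.6% of all genes, and the range was −0.41 (XBP1) to 0.24 (DNAJB9). With miR-140-3p, where 1.09% were lower and 0.998% higher, 6 of the 10 were below 0, beside 45.4% of all genes, and the range was −0.42 (HERPUD1) to 0.35 (DNAJB9). From the lists EDEM2, an enzyme that trims misfolded glycoproteins, was at −0.61 and its relative EDEM3 at 0.57 with miR-140-5p, and TRIB3 was at −0.80 with miR-140-3p.

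The genes differed in how steady they were across the 8 arrays. EDEM1, which hands misfolded glycoproteins to degradation, stayed between −0.18 and 0.08 on this scale. It was also the member nearest to background, and over the alternatives it ran from −0.77 with miR-199-3p to 0.40 with miR-532-3p, both from the scanner's own ratio. PDIA4 and SDF2L1 were below 0 on all 8 arrays, with ranges of −0.91 to −0.02 and −0.68 to −0.01. DNAJB9 was above 0 on 7 arrays, with a median of 0.40 and its lowest value, −0.09, in C4-2. HERPUD1 and XBP1 were above 0 on both bisamide arrays. HERPUD1 was below 0 on all 6 miRNA arrays (−0.45 to −0.15) and XBP1 on 5 of them (−0.41 to 0.01). Under median centring PDIA4, SDF2L1, DNAJB9, HERPUD1 and XBP1 each had values of the opposite sign, so these counts of direction belong to the loess fit.

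A total of 3 members had bisamide values that did not overlap those of the miRNA arrays. HERPUD1 and XBP1 were higher on both bisamide arrays than on all 6 miRNA arrays, 2 of 10 genes, which 7.51% of the 12579 genes measured throughout also were. CALR was lower on both than on all 6, 1 of 10 genes beside 5.52%, by a narrow margin (−0.20 and −0.21 against a lowest miRNA value of −0.19). The bisamide arrays are 1 cell line and the miRNA arrays 4, and of the latter the miR-125b-1-3p array alone is of PC3 too. Against the mean of the 3 PC3 mocks HERPUD1 was at 0.30 and 0.37 with bisamide and −0.02 with miR-125b-1-3p, and XBP1 at 0.31, 0.17 and 0.01.

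Likeness to HSPA5 was described over the 8 arrays among 12569 genes. The highest Pearson correlations of log2 ratios were those of LPXN (0.95), SMIM2-AS1 (0.94) and TMBIM6 (0.94). SMIM2-AS1 moved little, between −0.02 and 0.12. LPXN stood at 0.49 on the miR-125b-1-3p array and at 0.26 on that of miR-532-5p. TMBIM6, a membrane protein of the endoplasmic reticulum, stood there at 0.33 and 0.58. HSPA5 was high on both arrays too, but the genes were picked for their likeness to it on these same 8 arrays. The pattern they share is thus no separate result. The members themselves were left out of this ranking beforehand.

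The mock channel gave the level of each member in the 4 lines, with 3 PC3 mocks, 1 C4-2 mock and, for 786-O and T24, 2 arrays each averaged to 1. Levels were compared with limma over 22625 genes with Benjamini-Hochberg adjustment within each pair of lines. The spread came from the 3 PC3 mocks alone, and the single mocks of the other lines were assumed to vary like them. These p-values measure the spread between samples that may be technical. Members differed at an adjusted p under 0.05 in 7 of 10 genes between C4-2 and PC3 (52.7% of all genes), 3 between 786-O and PC3 (40.9%), 5 between T24 and PC3 (34.7%), 4 between 786-O and C4-2 (41.5%), 4 between T24 and C4-2 (41.6%) and 2 between T24 and 786-O (26.7%). The members' share was above that of all genes for C4-2 and T24 against PC3 and below it in the other 4 pairs.

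DNAJB9, HERPUD1 and XBP1 had their highest level in C4-2, though not every difference passed the threshold. DNAJB9 had a log2 Cy3 level of 9.24 in C4-2, against 7.27, 7.52 and 7.83 in the PC3 mocks (7.54 ± 0.28, SD, n = 3), 7.39 in 786-O and 7.48 in T24. Only C4-2 was high. The C4-2 minus PC3 difference was 1.70 (limma, adjusted p = 0.00196), the 786-O minus C4-2 difference −1.85 (adjusted p = 0.00366) and the T24 minus C4-2 difference −1.75 (adjusted p = 0.00467). Under median centring the first was 0.67 (adjusted p = 0.0773) and the last −0.95 (adjusted p = 0.0667), and only the 786-O minus C4-2 call held. No pair among the other 3 lines passed the threshold after quantile normalization.

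HERPUD1 had the same leader, with 12.05 in C4-2, 10.19, 10.89 and 10.98 in the PC3 mocks (10.69 ± 0.43, SD, n = 3), 10.16 in 786-O and 10.83 in T24. C4-2 was above PC3 by 1.36 (limma, adjusted p = 0.0158), or by 0.47 under median centring (adjusted p = 0.253), and above 786-O by more, with a 786-O minus C4-2 difference of −1.89 (adjusted p = 0.0129). The T24 minus C4-2 difference of −1.22 missed the threshold (adjusted p = 0.0543, interval −2.20 to −0.24). XBP1 was at 11.13 in C4-2, 9.30, 9.64 and 9.80 in the PC3 mocks (9.58 ± 0.26, SD, n = 3), 10.36 in 786-O and 10.71 in T24. PC3 was the low line, with differences of 1.55 for C4-2 (limma, adjusted p = 0.00247), 1.13 for T24 (adjusted p = 0.0124) and 0.78 for 786-O (adjusted p = 0.0353). The last was lost without the 24 h mock (0.64, adjusted p = 0.0531) or the 48 h mock (0.81, adjusted p = 0.0805). Under median centring none of the 3 was called (limma, adjusted p = 0.123 for C4-2, 0.0521 for T24 and 0.134 for 786-O, the last turned to −0.45). XBP1 in C4-2 did not pass against 786-O (adjusted p = 0.065) or T24 (adjusted p = 0.258).

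CALR was lowest in T24 and next lowest in C4-2. Its levels were 11.89 in T24, 12.56 in C4-2, 13.30, 13.21 and 13.32 in the PC3 mocks (13.28 ± 0.06, SD, n = 3) and 13.50 in 786-O. T24 lay below PC3 by a log2 difference of −1.39 (limma, adjusted p = 0.000609) and below 786-O by −1.61 (adjusted p = 0.000788), and C4-2 lay below PC3 by −0.72 (adjusted p = 0.00268). The 786-O minus PC3 difference of 0.22 did not pass (limma, adjusted p = 0.137, interval −0.03 to 0.48). CALR was the member with the closest PC3 mocks.

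HSPA5 had its lower levels in the prostate lines, at 7.32 in C4-2 and 7.37, 8.004 and 8.001 in the PC3 mocks (7.79 ± 0.37, SD, n = 3), and its higher ones in 786-O (8.89) and T24 (8.65). The 786-O minus PC3 difference was 1.097 (limma, adjusted p = 0.0262), falling to −0.0048 under median centring, and the T24 minus C4-2 difference was 1.33 (adjusted p = 0.0253). The T24 minus PC3 difference of 0.86 did not pass (limma, adjusted p = 0.0603, interval 0.18 to 1.55). SDF2L1, which forms a complex with DNAJB11 on HSPA5 clients, was highest in T24 at 12.95, beside 12.33 ± 0.17 (SD, n = 3) in PC3, 11.96 in 786-O and 11.70 in C4-2. The T24 minus C4-2 difference was 1.24 (limma, adjusted p = 0.00482). PDIA4 was at 9.23 ± 0.23 (SD, n = 3) in PC3, 9.90 in C4-2, 10.13 in T24 and 10.22 in 786-O, and the 786-O minus PC3 difference was 0.99 (limma, adjusted p = 0.0138), turning to −0.24 under median centring.

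HSP90B1, CANX and EDEM1 varied least between lines after quantile normalization. HSP90B1 lay between 12.44 (T24) and 12.95 (PC3), and its 2 calls, C4-2 minus PC3 (−0.47, limma, adjusted p = 0.0451) and T24 minus PC3 (−0.51, adjusted p = 0.0498), were lost without the 24 h mock (adjusted p = 0.06 and 0.0722) or the 48 h mock (0.0945 and 0.106). CANX lay between 7.82 (C4-2) and 8.38 (786-O), and its widest difference, 786-O minus C4-2, was 0.57 (interval 0.11 to 1.02, limma, adjusted p = 0.0532). EDEM1, the member nearest to background, lay between 6.19 and 6.39. With all 3 PC3 mocks no pair of it was called, and its intervals reached no further than −0.46 and 0.36. Under median centring HSP90B1 was at −1.20 for 786-O minus PC3. CANX was then at −1.33 for C4-2 minus PC3, −0.85 for 786-O minus PC3 and 0.98 for T24 minus C4-2.

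Of the 25 calls between mocks, 17 held under every alternative but median centring and 8 under that too. The 8 were CALR in 4 pairs (C4-2 and T24 against PC3, 786-O against C4-2, T24 against 786-O), HSPA5 and SDF2L1 between T24 and C4-2, and DNAJB9 and HERPUD1 between 786-O and C4-2. Without 1 of the PC3 mocks 8 calls were lost. Besides HSP90B1 and XBP1, these were PDIA4 for C4-2 and T24 minus PC3 (highest adjusted p 0.101 and 0.0671) and SDF2L1 for C4-2 and T24 minus PC3 and T24 minus 786-O (0.0554, 0.101 and 0.0509).

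**Figure D5:**
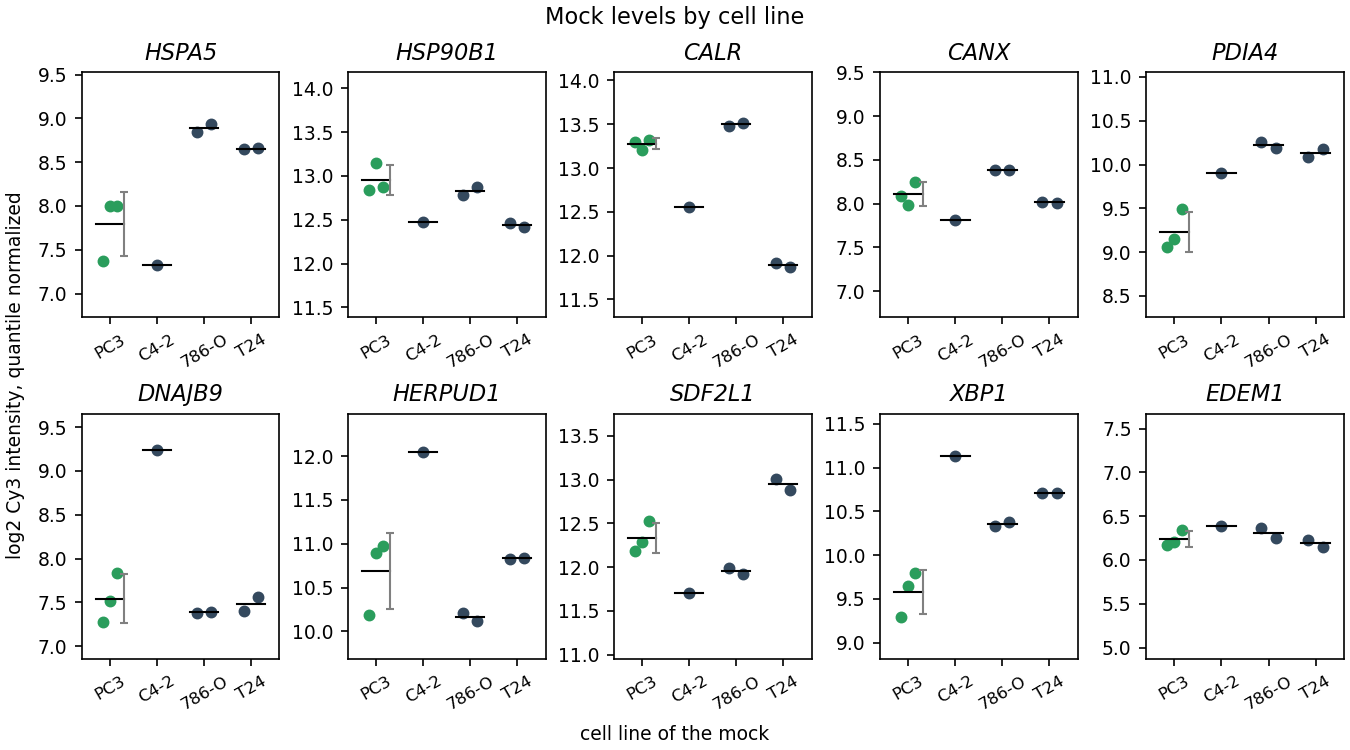
Log2 Cy3 intensity of the mock RNA, normexp corrected and quantile normalized, for the 10 genes by cell line, each panel with its own range of equal height. Points are arrays, short lines are means and the grey bar is 1 SD over the 3 PC3 mocks. DNAJB9 stands at 9.24 in C4-2 and near 7.5 in the other lines, and CALR is lowest in T24 at 11.89.

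The PC3 mocks themselves were not interchangeable. Between the 48 h and 24 h mocks 0.919% of genes differed by more than 0.5 (log2), among them 2 members, HSPA5 (0.64) and HERPUD1 (0.71). Between the miR-125b-1-3p mock and the 24 h mock the share was 3.18%, with 3 members, HSPA5 (0.64), HERPUD1 (0.79) and DNAJB9 (0.56). Between the miR-125b-1-3p mock and the 48 h mock it was 3.11%, with no member. The SD over the 3 PC3 mocks thus ran from 0.06 for CALR to 0.43 for HERPUD1. It is a spread of mock levels between arrays of 1 line, not the error of a ratio within an array. The error of a treated value, with 1 array each, was not measured in PC3 or 786-O, and the SD serves below only as a scale. With miR-532-3p the values of HSP90B1 (SD in PC3 0.17), CANX (0.14) and PDIA4 (0.23) were several times as large as that SD. The values of HERPUD1 (0.81, SD 0.43) and DNAJB9 (0.52, SD 0.28) with bisamide for 24 h and of HSPA5 with miR-125b-1-3p and miR-532-5p (0.61 and 0.60, SD 0.37) were less than 2 SD. Every other value past 0.5 was more than 2 SD in size. Those with bisamide were XBP1 at 24 h (0.59, SD 0.26) and HSP90B1 and PDIA4 at 48 h (−0.73 and −0.55, SD 0.17 and 0.23).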

How the data were processed

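The authors labelled mock RNA with Cy3 and treated RNA with Cy5, hybridised it to 1 Agilent slide and read it with Feature Extraction 11.5.1.1. The deposited spot intensity of each channel was used, linear and without normalization. The deposited log10 ratio, and the series table that held the same values, served as an alternative. Intensities were corrected with normexp (offset 50) and loess in limma 3.58.1 (R 4.3.3), outlier spots were left out and spots of a probe averaged. The result is a log2 ratio computed here from the deposited intensities. Mock levels were normalized by quantiles and fitted with limma (lmFit, eBayes with a trend), with p-values adjusted by Benjamini-Hochberg. The number of arrays limits the precision, and batches could not be tested on 1 slide.

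The members, lists and named genes were chosen with earlier results of these data known. All 10 members were named always, together with the 3 genes most like HSPA5, 5 genes of the PERK branch, and the lowest and highest listed genes past 0.5 on each array (up to 3 each way with bisamide). Symbols of all 10 matched RefSeq by accession. The scripts were tested on simulated data. C-terminal retrieval signals of the proteins were not analysed here. One cell line marker is not reported here.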

Additional observations from a re-analysis of the deposited data

How the results depend on the processing

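With 1 array for each treatment the ratios had no replicate check. No paired analysis was possible because each treatment had 1 array. Median centring in place of loess moved the members' median to 0.67 and 0.68 for bisamide at 24 h and 48 h, 0.49 for miR-199-3p, 0.77 for miR-125b-1-3p, 0.20 for miR-532-3p, 0.59 for miR-140-5p and 0.71 for miR-140-3p, beside 0.45, 0.44, 0.30, 0.42, 0.17, 0.35 and 0.45 for the median gene in that order, and reversed HSP90B1 (0.28) and PDIA4 (0.16) with bisamide at 48 h and SDF2L1 with miR-532-3p (0.094). It counted 8 members higher at 24 h and 6 higher and 0 lower at 48 h, and 3 lower and 28 higher over the 6 miRNA arrays, where 5 and 4 of 60 values were counted before. On that scale 44.9% of all genes were higher at 24 h, 43.9% at 48 h and 2.34% to 44.9% on the miRNA arrays. At 24 h, 1 member was lower without background correction, at an offset of 0 and by plain subtraction. Against the mean of the 3 PC3 mocks (chosen after seeing the data) 2 were lower and 0 higher. At 48 h, 1 was lower once each gene's median over the miRNA arrays was subtracted. At thresholds of 1.0 and 1.5 no member was called with bisamide, and 1 was lower and 0 higher over the miRNA arrays. For the mocks, median centring called 6 members for 786-O minus PC3, 2 for T24 minus PC3 and 4 for T24 minus 786-O, and reversed HSPA5 (−0.0048), PDIA4 (−0.24) and XBP1 (−0.45) for 786-O minus PC3 and PDIA4 for C4-2 minus PC3 (−0.48). Each array as a sample called 6, 7 and 5 members for 786-O minus PC3, 786-O minus C4-2 and T24 minus 786-O. A difference over 1.0 as well left 3, 1, 2 and 1 for C4-2, 786-O and T24 minus PC3 and T24 minus 786-O. Leaving out 1 PC3 mock gave 4 to 8, 2 to 3 and 2 to 6 for C4-2, 786-O and T24 minus PC3, 4 to 6 for both pairs with C4-2 and 1 to 2 for T24 minus 786-O. Causes were not tested. EDEM1, with a raw Cy3 intensity of 33 to 60.4, was the member nearest to background.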
